A study of Arabidopsis thaliana with 9 samples.

Results

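Transcripts of seu-3 mutant root tips were set against those of Col-0 wild-type root tips of Arabidopsis thaliana, each measured by RNA sequencing in 3 libraries. Every gene with a mean of at least 1 FPKM (fragments per kilobase of transcript scaled to the number of mapped fragments) over these 6 libraries was included, which gave 16831 of the 33560 gene identifiers of the series. The seu-3 plants carry a mutant allele of SEU (SEUSS), whose lesion and strain background are not given in the sources used here, and Col-0 is the standard wild-type accession. Another genotype of the series, wox5-1, a mutant of the homeobox gene WOX5 that acts in the quiescent centre of the root, served as a further comparison with 3 libraries. All seedlings were 5 days old, had been kept cold for 2 days as seeds and then grown upright on medium with 1% sucrose under 16 h of light and 8 h of dark. The tissue was a root tip of about 1 mm as the series states it, but about 3 mm as the extraction protocol does, and the sources used here do not settle which. Since the samples are bulk tissue, fewer cells of a type and less RNA per cell cannot be told apart in any of the results. The labels do not say that the 3 libraries of a genotype came from separate sowings, so each p-value sets a difference against a spread between libraries that may be technical.

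SEU is a nuclear adaptor protein without a DNA-binding domain of its own. It joins the co-repressor LEUNIG (LUG) and its relatives to DNA-binding transcription factors, and it is best known for repression of the floral homeotic gene AGAMOUS and for roles in embryo, ovule and shoot development. A growing root tip holds, from the end upwards, the root cap, the quiescent centre with the stem cells around it, the meristem in which cells divide, and the zone in which cells elongate and epidermal cells start to form hairs. Dividing cells carry high levels of ribosome and cell cycle transcripts, whereas elongating cells carry high levels of transcripts for wall proteins, wall-loosening enzymes and water channels.

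FPKM of each library were divided by a median-ratio factor, which ran from 0.866 to 0.958 in seu-3 and from 1.09 to 1.12 in Col-0, and all FPKM below are these scaled values unless said otherwise. A change is the difference of mean log2(FPKM + 1), seu-3 minus Col-0, which understates the change of genes at low FPKM. A gene is said to have risen or fallen where limma's moderated test gave a Benjamini-Hochberg adjusted p below 0.05 over all tested genes. Values of single libraries are given for replicates 1, 2 and 3 in that order, and means are given ± SD over the 3 libraries of a genotype. Each gene said to have risen or fallen also passed with each of the 6 libraries left out in turn, unless the same paragraph says otherwise.

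The deposited FPKM summed to between 794809 and 812315 in the seu-3 libraries and to between 796232 and 812803 in the Col-0 libraries. They do not give the depth of the libraries, and a search for the FPKM worth of 1 fragment put at most 26.6% of low values within 0.1 of a whole number, where evenly spread values would give 20%. Between 20504 and 21063 genes in seu-3 libraries and between 20638 and 20887 genes in Col-0 libraries were above 0 FPKM. The 100 most abundant genes held 28.0% to 31.2% of the FPKM in seu-3 libraries, against 22.5% to 22.8% in Col-0 libraries. The first principal component of the log values, with 67.2% of their variance, separated the genotypes, at 21.7 to 54.1 for seu-3 and -45 to -25.8 for Col-0. On this axis seu-3 replicate 3 and Col-0 replicate 3 lay farthest apart, and seu-3 replicate 2 and Col-0 replicate 1 nearest to each other.

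SEU itself (AT1G43850, chromosome 1, bases 16616988 to 16622049 on the plus strand of TAIR10.1) had 5.17, 5.45 and 4.84 FPKM in the seu-3 libraries, against 17.2, 12.3 and 11.8 FPKM in the Col-0 libraries. The 3 mutant libraries were alike and each lay below every wild-type library, which also held for 26.0% of all tested genes. The mean was 2.68-fold lower in seu-3 (log2 change -1.25, SE 0.15, adjusted p = 0.00362), and the exact two-sided permutation p was 0.1, the smallest that 3 libraries against 3 can give. SEU overlaps AT1G43860 on the opposite strand, and the sources used here do not say whether the libraries kept strand. That neighbour, named after its value was seen, had a log2 change of -0.22 (adjusted p = 0.203), and without scaling it passed (adjusted p = 0.0281).

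Among the 11 genes of a list of SEU, its paralogues and their partner co-repressors, 2 rose besides the fall of SEU. The risen share is near the 17.0% risen of all tested genes, so the rises do not set this list apart. LUH (AT2G32700), a homologue of LUG and a partner of SEU, had 52.7, 50.7 and 56.8 FPKM in the seu-3 libraries, against 43.4, 43.5 and 43.3 FPKM in the Col-0 libraries (log2 change 0.29, SE 0.09, adjusted p = 0.0371). SLK2 (AT5G62090), a paralogue of SEU, had 10.8, 10.11 and 10.9 FPKM in the seu-3 libraries, against 7.99, 8.60 and 8.09 FPKM in the Col-0 libraries (log2 change 0.33, SE 0.10, adjusted p = 0.0380). In both genes every mutant library was above every wild-type library, which also held for 25.9% of all tested genes. Without scaling the adjusted p was 0.753 for LUH and 0.465 for SLK2, and both calls were lost with any library other than seu-3 replicate 2 left out, with the replicate block and with a filter of 5 FPKM. LUG itself was 9.69 ± 1.29 FPKM in seu-3 and 10.4 ± 0.973 FPKM in Col-0 (adjusted p = 0.613). The other paralogues SLK1 and SLK3 changed by 0.10 and -0.14, and TPL and its relatives TPR1, TPR2, TPR3 and TPR4, co-repressors of another family, by -0.04, 0.01, 0.24, -0.33 and 0.30. None of these 8 genes passed in the fit, and the signs of 6 of them depended on the setting.

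**Figure D1:**
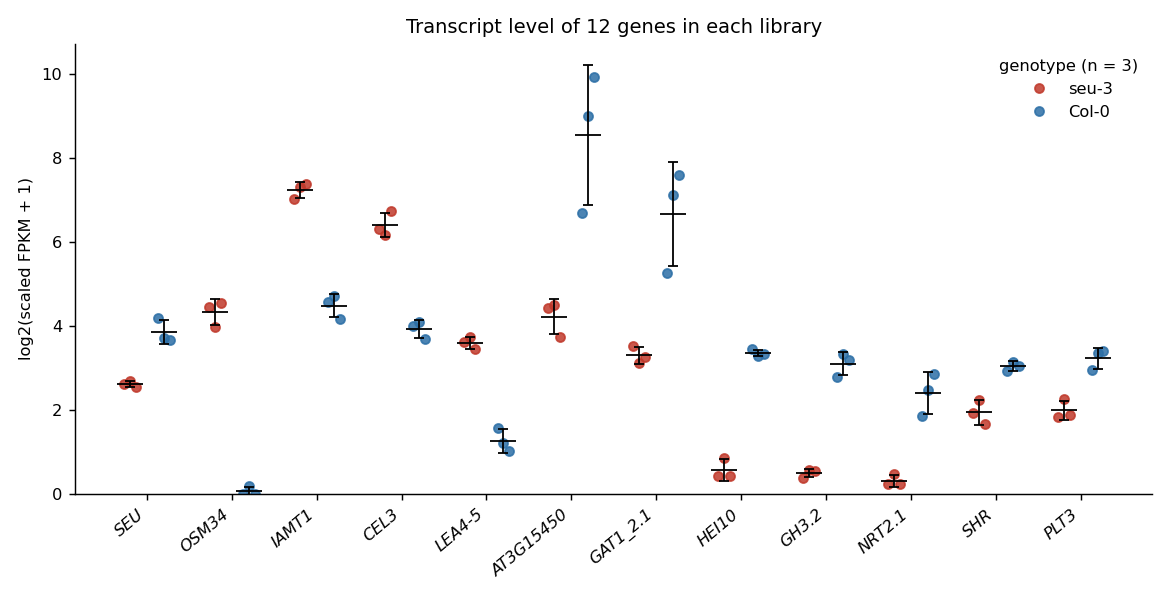
Level of 12 named genes in each library as log2(scaled FPKM + 1), with seu-3 left of Col-0 for each gene; points are libraries, and black bars give the mean and SD of 3. The genotypes overlap in none of the 12, and 51.9% of all tested genes likewise did not overlap. The largest rises and falls were chosen among genes without overlap, so for them this was set by the choice. AT3G15450 and GAT1_2.1 differ among the Col-0 libraries, with replicate 1 the lowest.

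Of the 16831 tested genes, 2863 rose in seu-3 (17.0%) and 2808 fell (16.7%), and 11160 passed in neither direction (33.7% called in all). Changes of at least 1 log2 unit were seen in 424 risen genes (2.52% of those tested) and 668 fallen genes (3.97%). The 3 seu-3 libraries lay above all Col-0 libraries in 25.9% of tested genes and below all of them in 26.0% (51.9% in all). The balance of rises and falls depended on scaling: without it 1276 genes rose (7.58%) and 5316 fell (31.6%), as the median change moved to -0.24 from -0.01, and with quantile normalization 2462 rose (14.6%) and 2314 fell (13.7%). Changes are therefore relative to the median gene. The number called was 3082, 6214 and 3601 without seu-3 replicates 1, 2 and 3, and 4484, 2207 and 2778 without Col-0 replicates 1, 2 and 3. Called in all 6 of these fits and in the fit of all libraries were 1909 genes, 1120 higher and 789 lower in seu-3.

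The direction of change went with abundance. Tested genes were put in 10 equal bins by mean FPKM. In the highest bin (84.8 FPKM and more) 43.7% rose and 14.97% fell, with a median change of 0.26. In the lowest bin (up to 1.83 FPKM) 4.75% rose and 18.6% fell, with a median of -0.24. Without scaling the medians of these 2 bins were 0.00 and -0.39, and with quantile normalization, which gives every library the same distribution of values, they were 0.08 and -0.01. Risen genes had a median of 31.8 FPKM and fallen genes one of 7.89 FPKM, against 10.6 FPKM for all tested genes. The 424 genes that rose by at least 1 log2 unit had a median of 2 exons and a median transcript length of 1406 bases, and 36.3% of them had a single exon. The 668 genes that fell by at least as much had a median of 4 exons and 1481 bases, and 18.5% had a single exon. All tested genes had a median of 5 exons and 1732 bases, with 15.5% single-exon genes. Over all risen genes the medians were 4 exons and 1707 bases, and over all fallen genes 5 exons and 1659 bases. The median GC content of all risen, all fallen and all tested genes was 41.1%, 41.6% and 41.4%. The share called ran from 32.1% on chromosome 1 to 34.9% on chromosome 3, and was 25.6% of the 129 tested genes within 1 Mb of SEU.

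**Figure D2:**
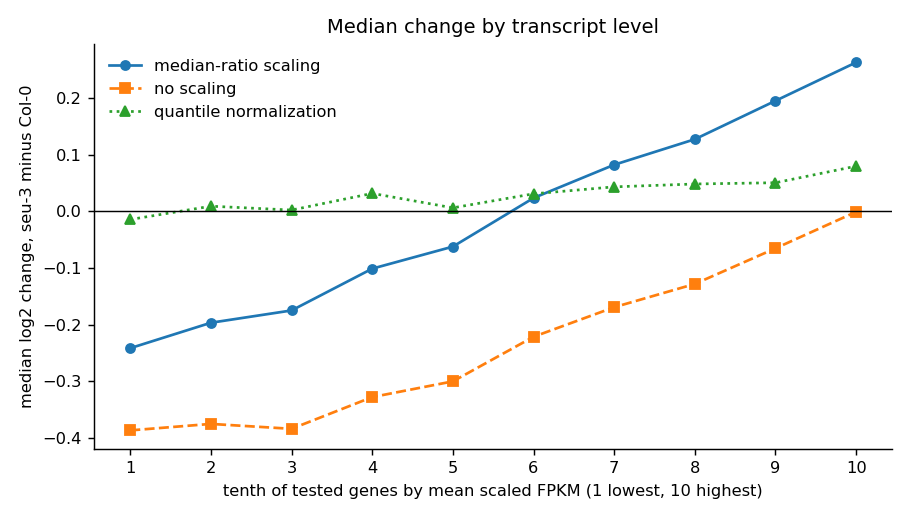
Median log2 change (seu-3 minus Col-0) in each of 10 equal bins of the tested genes, ordered from low to high mean scaled FPKM, under 3 ways of scaling the libraries. With median-ratio scaling the median runs from -0.24 in the lowest bin to 0.26 in the highest; unscaled values run in the same direction below 0, and quantile normalization leaves medians between -0.01 and 0.08.

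The largest rise was in OSM34 (AT4G11650), an osmotin of the thaumatin-like family of defence proteins. It had 20.9, 14.7 and 22.6 FPKM in the seu-3 libraries, against 0, 0.134 and 0 FPKM in the Col-0 libraries (log2 change 4.27, SE 0.18, adjusted p = 0.000245), so it was near 0 in the wild type and above 10 FPKM in every mutant library. IAMT1 (AT5G55250), which encodes the enzyme that methylates indole-3-acetic acid (IAA, the main auxin), had 130.2, 158 and 166 FPKM in the seu-3 libraries, against 23.0, 25.3 and 17.0 FPKM in the Col-0 libraries. That is 6.96-fold higher in seu-3 (log2 change 2.75, SE 0.16, adjusted p = 0.000575). CEL3 (AT1G71380), a cellulase, was 85.4 ± 18.4 FPKM in seu-3 and 14.4 ± 2.18 FPKM in Col-0 (log2 change 2.48). AT4G16260, annotated as a glycosyl hydrolase, was 69.6 ± 11.9 FPKM in seu-3 and 9.50 ± 0.958 FPKM in Col-0 (log2 change 2.74), and AT4G26880, of the Stig1 family of small secreted proteins, was 74.7 ± 14.6 FPKM in seu-3 and 10.4 ± 5.01 FPKM in Col-0 (log2 change 2.79). LEA4-5 (AT5G06760), a late embryogenesis abundant protein of the kind made under water deficit, was 11.2 ± 1.23 FPKM in seu-3 and 1.43 ± 0.479 FPKM in Col-0. PRF5 (AT2G19770), a profilin that binds actin monomers, was 14.03 ± 3.05 FPKM in seu-3 and 2.19 ± 1.25 FPKM in Col-0, and the glycosyltransferase UGT84A2 (AT3G21560) was 135 ± 26.0 FPKM in seu-3 and 31.1 ± 19.8 FPKM in Col-0. AT1G12760, a RING-finger protein, varied little within genotypes, at 47.2 ± 1.16 FPKM in seu-3 and 8.85 ± 1.14 FPKM in Col-0 (log2 change 2.30). The precursor of the microRNA MIR838 was at 2.86, 8.23 and 3.82 FPKM in the seu-3 libraries, against 0, 0 and 0 FPKM in the Col-0 libraries, but it lies inside the annotated AT1G01040, so fragments of that gene cannot be told apart from it. In each of the 15 largest rises the call held with any library left out.

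The largest fall was in AT3G15450, annotated as an aluminium-induced protein with YGL and LRDR motifs. It had 20.5, 21.6 and 12.4 FPKM in the seu-3 libraries, against 103, 513 and 979 FPKM in the Col-0 libraries (log2 change -4.32, SE 0.72, adjusted p = 0.00742), so Col-0 replicate 1 was the lowest of the wild-type libraries and still above every mutant library. The same order of Col-0 libraries was seen in GAT1_2.1 (AT1G15040), a class I glutamine amidotransferase-like protein, with 10.45, 7.73 and 8.68 FPKM in the seu-3 libraries, against 37.4, 138 and 195 FPKM in the Col-0 libraries (log2 change -3.36, SE 0.53, adjusted p = 0.00631). DIN10 (AT5G20250) of the raffinose synthase family, induced by darkness and sugar depletion, had 32.7, 31.2 and 27.3 FPKM in the seu-3 libraries, against 86.0, 274 and 385 FPKM in the Col-0 libraries. ProDH1 (AT3G30775), the proline dehydrogenase that starts proline breakdown, had 41.2, 44.6 and 38.2 FPKM in the seu-3 libraries, against 128, 332 and 479 FPKM in the Col-0 libraries. Across these 4 genes the seu-3 libraries were low and close together, while the Col-0 libraries spread over a range of several-fold. AT3G15450, GAT1_2.1 and DIN10 overlap a gene on the opposite strand.

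Other large falls differed less among the wild-type libraries. HEI10 (AT1G53490), a RING protein known from meiotic crossover formation, had 0.344, 0.820 and 0.340 FPKM in the seu-3 libraries, against 9.89, 8.82 and 9.16 FPKM in the Col-0 libraries (log2 change -2.79, SE 0.16, adjusted p = 0.000575); it overlaps AT1G53480 and AT1G53500 on the opposite strand. AT5G49870, a mannose-binding lectin, was 1.08 ± 0.251 FPKM in seu-3 and 12.3 ± 0.167 FPKM in Col-0 (log2 change -2.68). GH3.2 (AT4G37390), an enzyme that conjugates IAA to amino acids, had 0.304, 0.484 and 0.456 FPKM in the seu-3 libraries, against 5.94, 9.17 and 8.11 FPKM in the Col-0 libraries (log2 change -2.61, SE 0.17, adjusted p = 0.00104), below 1 FPKM in every mutant library. AT1G05700, a leucine-rich repeat receptor kinase, was 0.0705 ± 0.0881 FPKM in seu-3 and 5.32 ± 1.27 FPKM in Col-0, the cytochrome P450 AT5G36130 was 0.908 ± 0.0616 FPKM in seu-3 and 11.05 ± 4.30 FPKM in Col-0, and the defensin-like AT3G59930 was 7.80 ± 2.62 FPKM in seu-3 and 54.1 ± 13.7 FPKM in Col-0. Among the 15 largest falls, AT5G44417 was the gene whose call rested on single libraries: its 0.995, 0.175 and 0.653 FPKM in the seu-3 libraries, against 1.81, 13.9 and 23.1 FPKM in the Col-0 libraries gave an adjusted p of 0.0250, and the call was kept without Col-0 replicate 1 alone (adjusted p from 0.0556 to 0.0833 without each other library).

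In absolute level the mutant gained most in secreted wall proteins. Proline-rich extensin-like proteins and arabinogalactan proteins (AGPs) are glycoproteins of the wall and the cell surface. AT1G23720, an extensin-like protein, had 14554, 11009.8 and 16148 FPKM in the seu-3 libraries, against 7483, 5925 and 5737 FPKM in the Col-0 libraries (log2 change 1.12, SE 0.18, adjusted p = 0.00634). AGP2 (AT2G22470) had 7829, 6326 and 8847 FPKM in the seu-3 libraries, against 3307, 2926 and 2173 FPKM in the Col-0 libraries (log2 change 1.46, SE 0.19, adjusted p = 0.00399). The other 8 of the 10 largest gains were the extensin EXT3 (AT1G21310), the extensin-like AT3G28550 and AT3G54580, the hydroxyproline-rich HRGP1 (AT3G54590), AGP24 (AT5G40730) and 3 small lipid-transfer-type proteins, AT4G12520, AT4G12510 and AT5G46900. Their changes ran from 0.56 (EXT3) to 1.36 (AT5G46900), and the libraries of the 2 genotypes did not overlap in any of them. Of all tested genes 25.9% were higher in seu-3 without overlap. These are repeat-rich or duplicated genes, so the split of fragments between copies is uncertain. At such levels quantile normalization, which fixes the top of each distribution, ended the calls of AT1G23720, AT3G28550, EXT3, AT4G12520, AT4G12510, AT3G54580 and AGP24, and turned the sign for EXT3 and AT3G54580. The EXT3 call was also lost without Col-0 replicate 2 (adjusted p = 0.0521) and where low genes were kept in (adjusted p = 0.109); EXT3 overlaps AT1G21313 on the opposite strand.

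The 10 largest losses of FPKM were of another kind. They included 4 genes annotated as ribosomal proteins, AT5G20290, AT2G34480, AT1G67430 and AT5G18380, AT4G15000 of the ribosomal L27e family, and the translation elongation factor AT5G60390. AT5G20290, a ribosomal protein of the S8e family, had 422, 528 and 272 FPKM in the seu-3 libraries, against 786, 813 and 862 FPKM in the Col-0 libraries (log2 change -1.06, SE 0.22, adjusted p = 0.0132). GLN1;2 (AT1G66200), a cytosolic glutamine synthetase that assimilates ammonium, had 203, 181 and 156 FPKM in the seu-3 libraries, against 482, 561 and 516 FPKM in the Col-0 libraries (log2 change -1.53, SE 0.12, adjusted p = 0.00118). BGLU21 (AT1G66270), a beta-glucosidase, and the chitinase AT2G43610 were lower too, with changes of -0.60 and -0.74. Without Col-0 replicate 2, 4 of the calls were lost: AT5G60390 (adjusted p = 0.0533), AT2G34480 (0.0527), BGLU21 (0.0516) and AT5G18380 (0.0561), and without Col-0 replicate 3 AT2G34480 (0.0513) and AT5G18380 (0.0548). AT5G60390 is a member of a set of near-identical genes and overlaps AT5G60400, and AT1G67430 overlaps AT1G08937, so their values are uncertain.

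The ribosomal protein list holds the genes whose annotated product reads ribosomal protein followed by S or L and a number, or 40S or 60S ribosomal protein, cytosolic and organellar ones included. Genes worded otherwise, AT4G15000 among them, are outside it. Of its 256 tested members 199 fell (77.7%), 3 rose and 54 passed in neither direction, against 16.7% fallen and 17.0% risen of all tested genes. Their median change was -0.86, or -1.12 without scaling and -0.97 with quantile normalization, beside -0.01, -0.24 and 0.03 for all tested genes. Summed over the family, the level was 25879, 29976 and 17377 in the seu-3 libraries, against 42908, 42197 and 45482 in the Col-0 libraries. The lowest sum was that of seu-3 replicate 3, and no mutant library reached a wild-type one. AT2G37600, of the L36e family, had 18.7, 19.7 and 12.6 FPKM in the seu-3 libraries, against 38.5, 41.7 and 52.2 FPKM in the Col-0 libraries (log2 change -1.34, SE 0.19, adjusted p = 0.004605). AT5G66860, of the L25 family, was 16.5 ± 2.26 FPKM in seu-3 and 31.1 ± 0.907 FPKM in Col-0 (log2 change -0.88), and RPL3P (AT3G17465), the L3 protein of plastid ribosomes, was 10.9 ± 2.56 FPKM in seu-3 and 24.8 ± 0.623 FPKM in Col-0 (log2 change -1.14). The 3 that rose, AT1G53560, AT1G17080 (both annotated as L18ae family) and AT1G68660 (an L12 or Clp protease adaptor family protein), changed by 0.87, 0.48 and 0.63; the call of AT1G17080 was lost without scaling (adjusted p = 0.0735), with quantile normalization (0.0552) and without Col-0 replicate 2 (0.0524). AT1G53560, AT1G17080, AT1G68660 and RPL3P each overlap another annotated gene, and ribosomal protein genes have near copies between which fragments may have been split. The number of fallen family members was 157, 203 and 183 without seu-3 replicates 1, 2 and 3, and 170, 88 and 108 without Col-0 replicates 1, 2 and 3.

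All 8 genes of a list of nucleolar ribosome biogenesis factors fell, beside 16.7% of all tested genes. Their median change was -1.40, or -1.66 without scaling and -1.51 with quantile normalization, beside -0.01, -0.24 and 0.03 for all tested genes. NUC-L1 (AT1G48920), nucleolin, which organises ribosomal DNA, had 46.5, 79.6 and 24.0 FPKM in the seu-3 libraries, against 132, 144 and 142 FPKM in the Col-0 libraries (log2 change -1.62, SE 0.36, adjusted p = 0.0162). NOP56 (AT1G56110), a core protein of the particles that methylate ribosomal RNA, had 26.9, 39.9 and 14.4 FPKM in the seu-3 libraries, against 76.6, 76.7 and 67.8 FPKM in the Col-0 libraries (log2 change -1.52, SE 0.31, adjusted p = 0.0128). AT5G27120, annotated as a NOP56-like protein, changed by -1.52, and FIB1 (AT5G52470), fibrillarin, the methylase of those particles, by -1.30. The mutant libraries spread over a range of more than 2-fold, with replicate 3 the lowest and replicate 2 the highest in each of these genes. Without Col-0 replicate 2 the calls of NUC-L1 (adjusted p = 0.054), AT5G27120 (0.0521) and FIB1 (0.0571) were lost, as was that of FIB1 without Col-0 replicate 3 (0.0514). The count of fallen members was 4, 8 and 7 without seu-3 replicates 1, 2 and 3, and 7, 1 and 3 without Col-0 replicates 1, 2 and 3. NUC-L1 and NOP56 each overlap a gene on the opposite strand, and FIB1 a small RNA gene on its own strand.

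Promoters of plant ribosome genes are known for the telo-box and the site II element. In the 250 bases before the annotated start of each gene (TAIR10.1), the telo-box AAACCCTA and the site II element TGGGCC were searched on both strands; a match of one may share an end base with a match of the other. The site II element lay in 23.6% of promoters of fallen genes and 9.78% of those of risen genes, against 17.1% of the 16422 tested genes with a promoter and 13.7% of all 27443 promoters. For the telo-box the shares were 6.26%, 1.28%, 3.501% and 4.49%. Among the members of the ribosomal protein list 46.1% had a site II element and 14.1% a telo-box. Outside that family, 20.6% of the 2688 tested genes with a site II element fell and 10.3% rose, against 15.02% and 18.9% of the 13478 without it. For the telo-box outside the family these shares were 26.5% and 6.68% of 539 genes with it, against 15.6% and 17.8% of 15627 without it. A match is a description of letters and not of a bound site.

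Fallen ribosome genes with both motifs and no other annotated gene in the window numbered 11. The part of the promoter that spans the motifs is shown for the 3 with the largest falls, to let the arrangement be seen, 5′ to 3′ on the gene's strand, with the motifs in capitals; GGCCCA and TAGGGTTT are the reverse complements of the 2 motifs.
AT2G37600: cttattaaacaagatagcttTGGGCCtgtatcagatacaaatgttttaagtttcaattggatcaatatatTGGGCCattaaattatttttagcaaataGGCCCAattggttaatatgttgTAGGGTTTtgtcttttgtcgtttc
AT3G11120: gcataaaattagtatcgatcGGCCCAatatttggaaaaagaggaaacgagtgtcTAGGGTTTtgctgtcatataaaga
FIB1: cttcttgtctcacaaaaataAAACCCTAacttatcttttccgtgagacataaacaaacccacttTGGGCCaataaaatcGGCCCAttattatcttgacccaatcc
The first stretch is chr2:15775375-15775518 on the minus strand and holds 3 site II elements and 1 telo-box; AT2G37600 fell by 1.34 on the log2 scale. The second is chr3:3480942-3481019 on the plus strand, before a ribosomal protein gene of the L41 family named after its value was seen, which had 55.5, 32.8 and 28.2 FPKM in the seu-3 libraries, against 114, 83.5 and 87.3 FPKM in the Col-0 libraries (log2 change -1.31, SE 0.24, adjusted p = 0.01004); it holds 1 of each motif. The last is chr5:21293920-21294024 on the plus strand, with 2 site II elements and 1 telo-box. The FIB1 call was lost without Col-0 replicate 2 (adjusted p = 0.0571) or 3 (0.0514). In AT2G37600 and AT3G11120 the telo-box is the motif nearest the gene, and in FIB1 the site II elements are nearest.

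Genes of cell division were lower as well. Of 25 tested genes of mitosis and cytokinesis 17 fell (68%) and 0 rose, beside 16.7% fallen and 17.0% risen of all tested genes. The libraries of the genotypes did not overlap in 22 of the 25, all lower in seu-3 (26.0% of all tested genes were lower without overlap). No tested member had a higher mean in seu-3. The median change was -0.92, or -1.1005 without scaling and -0.70 with quantile normalization. CENH3 (AT1G01370), the histone H3 variant of centromeres, had 1.71, 2.36 and 1.82 FPKM in the seu-3 libraries, against 5.37, 5.53 and 5.11 FPKM in the Col-0 libraries (log2 change -1.103, SE 0.13, adjusted p = 0.00349). CYCB1;2 (AT5G06150), a mitotic B-type cyclin, had 4.06, 4.099 and 1.90 FPKM in the seu-3 libraries, against 7.61, 8.49 and 10.9 FPKM in the Col-0 libraries (log2 change -1.23, SE 0.24, adjusted p = 0.0115). CYCB2;3 (AT1G20610), another B-type cyclin, and PLE (AT5G51600), a microtubule bundler of the phragmoplast, changed by -1.002 and -0.84. In CYCB1;2 and PLE seu-3 replicate 3 was the lowest library of all. The summed level of the list was 88.3, 91.3 and 49.2 in the seu-3 libraries, against 139, 144 and 172 in the Col-0 libraries. The count of fallen members was 13, 17 and 13 without seu-3 replicates 1, 2 and 3, and 15, 6 and 7 without Col-0 replicates 1, 2 and 3. The letters AACGG, the core of the element known from mitotic genes, lay on either strand of 68.0% of these 25 promoters and of 21.8% of those of all tested genes. They lay in 23.5% of promoters of all fallen genes and in 20.5% of those of all risen genes. The 68.0% therefore describes this list and not fallen genes at large.

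DNA replication genes moved less. Of 18 tested members 6 fell (33.3%) and 0 rose, beside 16.7% and 17.0% of all tested genes. The median was -0.54, or -0.75 without scaling and -0.40 with quantile normalization, and without scaling all 18 fell. The 6 fallen members became 1, 16 and 3 without seu-3 replicates 1, 2 and 3, and 1, 0 and 1 without Col-0 replicates 1, 2 and 3. MCM6 (AT5G44635), a subunit of the replicative helicase, had 1.80, 2.24 and 1.26 FPKM in the seu-3 libraries, against 3.65, 3.08 and 3.70 FPKM in the Col-0 libraries (log2 change -0.71, SE 0.17, adjusted p = 0.0191), and PCNA1 (AT1G07370), the sliding clamp of DNA polymerases, had 14.8, 15.8 and 8.27 FPKM in the seu-3 libraries, against 23.1, 22.5 and 22.2 FPKM in the Col-0 libraries (log2 change -0.81, SE 0.22, adjusted p = 0.0262). Both calls were lost without Col-0 replicate 2 (adjusted p = 0.0502 and 0.0737) and Col-0 replicate 3 (0.0606 and 0.0641), that of MCM6 also without seu-3 replicate 1 (0.0535) and that of PCNA1 also without Col-0 replicate 1 (0.0562). Among 42 tested genes with histone in their annotation, some of them histone-modifying enzymes, 22 fell and 1, AT2G35170, rose (median -0.40, or -0.66 without scaling and -0.53 with quantile normalization). Histone genes have near-identical copies, so single values are uncertain, and AT2G35170 was called in 2 of the 6 fits that left out a library. HTA7 (AT5G27670), a histone H2A, was 30.5 ± 3.00 FPKM in seu-3 and 48.4 ± 1.17 FPKM in Col-0 (log2 change -0.65). That count was 12, 26 and 17 without seu-3 replicates 1, 2 and 3, and 19, 8 and 9 without Col-0 replicates 1, 2 and 3. D-type cyclins, which start the cell cycle, were mixed, with 2 risen (CYCD4;2 and CYCD6;1) and 3 fallen (CYCD3;2, CYCD3;3 and CYCD5;1) of 8. These shares are 25% and 37.5%, beside 17.0% risen and 16.7% fallen of all tested genes. CYCD4;2, CYCD3;2 and CYCD5;1 changed by 0.61, -0.71 and -0.62 and were called in 2, 2 and 1 of the 6 fits that left out a library. CYCD3;3 (AT3G50070) fell by 0.96 on the log2 scale, at 2.97 ± 0.867 FPKM in seu-3 and 6.66 ± 1.21 FPKM in Col-0. CYCD6;1 (AT4G03270), a cyclin of ground tissue divisions activated by SHORT-ROOT and SCARECROW, had 0.970, 1.83 and 2.33 FPKM in the seu-3 libraries, against 0.681, 0.442 and 0.193 FPKM in the Col-0 libraries (log2 change 0.89, SE 0.24, adjusted p = 0.0262); its call was lost with the replicate block (adjusted p = 0.0599) and without Col-0 replicates 2 and 3 (0.0742 and 0.0824), and without seu-3 replicate 2 or 3 it fell below the filter. CYCD6;1 overlaps AT4G03260 on the opposite strand.

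**Figure D3:**
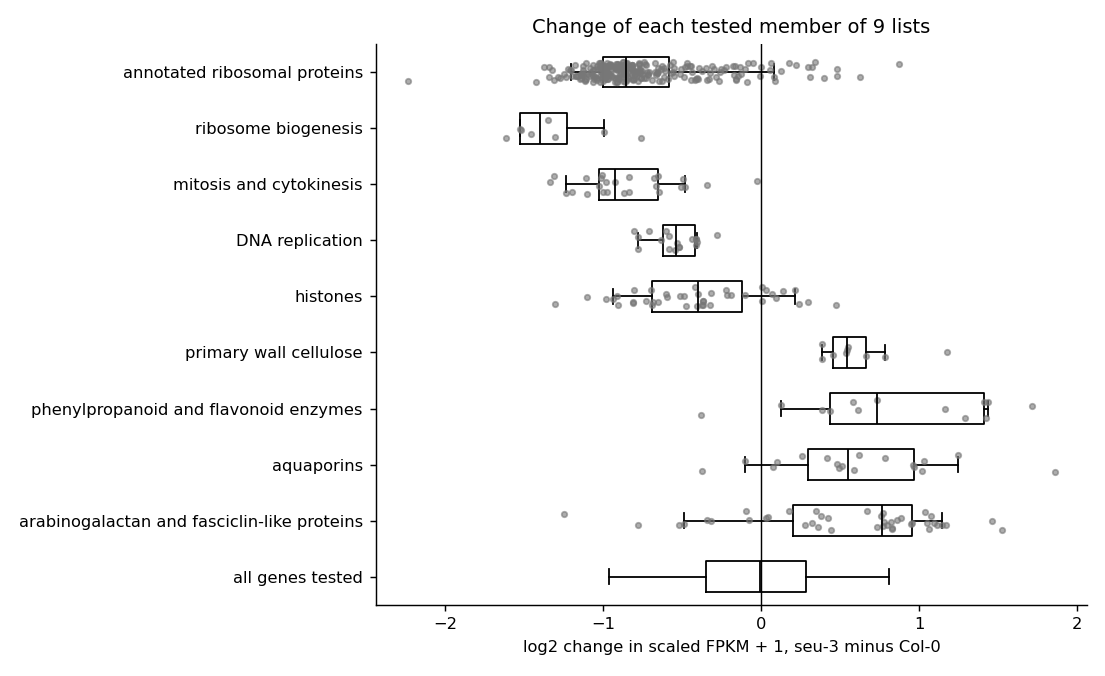
Log2 change (seu-3 minus Col-0) of every tested member of 9 lists and of all tested genes; points are genes, boxes give the median and quartiles and whiskers the 5th and 95th percentile. Ribosome and cell cycle lists lie mostly left of 0, and wall, flavonoid and water channel lists mostly right of it.

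Among 16 tested genes of the stem cell niche and the SHORT-ROOT network, 5 fell (31.25%) and 2 rose (12.5%). Of all tested genes 16.7% fell and 17.0% rose. The median of the list was -0.30, or -0.53 without scaling and -0.21 with quantile normalization. PLT3 (AT5G10510), an AP2-type factor that maintains root stem cells, had 2.58, 3.76 and 2.69 FPKM in the seu-3 libraries, against 6.73, 9.29 and 9.54 FPKM in the Col-0 libraries (log2 change -1.24, SE 0.17, adjusted p = 0.00478). SHR (AT4G37650), which encodes the mobile factor that patterns the ground tissue and supports the niche, had 2.81, 3.76 and 2.17 FPKM in the seu-3 libraries, against 6.57, 7.92 and 7.29 FPKM in the Col-0 libraries (log2 change -1.095, SE 0.17, adjusted p = 0.00612). In both genes every mutant library was below every wild-type one, as in 26.0% of all tested genes. Each mean was more than 2-fold lower in seu-3. The receptor-like kinase AT4G26540 (log2 change -0.51, SE 0.12, adjusted p = 0.0179), the receptor-like kinase AT5G48940 (log2 change -0.70) and MGP (AT1G03840), a zinc finger factor downstream of SHR named after its value was seen (log2 change -0.95), fell too; AT5G48940 was called in 3 and MGP in 2.00 of the 6 fits that left out a library. SCR (AT3G54220), the partner of SHR in the endodermis and quiescent centre, named after its values were seen, had 16.6, 24.1 and 15.1 FPKM in the seu-3 libraries, against 25.8, 22.3 and 20.7 FPKM in the Col-0 libraries (adjusted p = 0.206), and the libraries overlapped. The auxin response factor MP (AT1G19850) rose (log2 change 0.49), a call lost without scaling (adjusted p = 0.101), with the replicate block (0.0659), and without seu-3 replicate 1 (0.0692) or 3 (0.0699) and Col-0 replicate 2 (0.0927) or 3 (0.0802). The count of fallen members was 3, 6 and 5 without seu-3 replicates 1, 2 and 3, and 4, 3 and 3 without Col-0 replicates 1, 2 and 3, and the 2 risen members became 1, 1 and 0 without seu-3 replicates 1, 2 and 3, and 2, 0 and 0 without Col-0 replicates 1, 2 and 3. The niche genes WOX5, PLT1 and PLT2 lay below the filter and are named after their values were seen. WOX5 had 0.0966, 0 and 0 FPKM in the seu-3 libraries, against 0.277, 0.424 and 0.469 FPKM in the Col-0 libraries, PLT1 had 0.430, 0.339 and 0.206 FPKM in the seu-3 libraries, against 0.724, 0.759 and 0.837 FPKM in the Col-0 libraries, and PLT2 had 0.467, 0.577 and 0.190 FPKM in the seu-3 libraries, against 1.51, 1.11 and 0.936 FPKM in the Col-0 libraries. For all 3 the mutant libraries were below the wild-type ones (exact two-sided permutation p = 0.1 each, the smallest possible). Of all tested genes 26.0% were likewise lower without overlap, so this does not set the 3 apart. PLT3, AT4G26540 and MP overlap a gene on the opposite strand.

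Root cap genes were mixed in direction but higher in sum. Of 11 members, all tested, 6 rose and 2 fell, with a summed level of 633, 530.0 and 673 in the seu-3 libraries, against 358, 346 and 323 in the Col-0 libraries. AT1G65570, a pectin lyase-like polygalacturonase of the cap, had 180.2, 156 and 214 FPKM in the seu-3 libraries, against 53.5, 48.3 and 46.0 FPKM in the Col-0 libraries (log2 change 1.87, SE 0.13, adjusted p = 0.00104). BFN1 (AT1G11190), a nuclease of developmental cell death, was 19.2 ± 3.55 FPKM in seu-3 and 7.83 ± 0.352 FPKM in Col-0 (log2 change 1.18), and MC9 (AT5G04200), a metacaspase that also acts in dying cells, was 173 ± 26.1 FPKM in seu-3 and 98.3 ± 9.46 FPKM in Col-0 (log2 change 0.80). SMB (AT1G79580), a NAC factor that drives maturation of the lateral cap and sits upstream of cell death genes there, went the other way, with 5.18, 4.17 and 5.80 FPKM in the seu-3 libraries, against 9.43, 8.68 and 9.98 FPKM in the Col-0 libraries (log2 change -0.78, SE 0.14, adjusted p = 0.00823). The 6 risen members became 4, 5 and 4 without seu-3 replicates 1, 2 and 3, and 6, 4 and 4 without Col-0 replicates 1, 2 and 3. The 2 fallen members were SMB and PIN3, and the PIN3 call was kept in 1 of the 6 fits that left out a library.

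Markers of tissue that a root tip should lack were checked. Of 22 genes of shoot photosynthesis 15 passed the filter. Summed over the whole list, the level was 224, 219.9 and 209.8 in the seu-3 libraries, against 146, 188 and 195 in the Col-0 libraries. Without scaling 1 of the 15 tested rose and 1 fell. With scaling 0 fell and 3 rose (20%, near the 17.0% risen of all tested genes). These were LHCB3 (AT5G54270), a chlorophyll-binding protein, at 23.2 ± 1.36 FPKM in seu-3 and 14.2 ± 2.39 FPKM in Col-0, LHCB1.3 of the same family (log2 change 0.64) and RCA, Rubisco activase (log2 change 0.49); LHCB1.3 and RCA were called in 4 and 3 of the 6 fits that left out a library. The Rubisco small subunit gene RBCS1B was at 0 in all 6 libraries. Of 7 pollen genes 4 were at 0 in all 6 libraries, and the sum was 1.03, 2.11 and 1.37 in the seu-3 libraries, against 0.894, 0.883 and 1.33 in the Col-0 libraries. The part of these markers in other results was not tested.

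Of 20 tested auxin response genes 4 rose and 4 fell. These shares of 20% each way are near the 17.0% risen and 16.7% fallen of all tested genes. The Aux/IAA repressors IAA17 (AT1G04250), IAA7 (AT3G23050) and IAA14 (AT4G14550), which hold auxin response factors inactive until auxin triggers their breakdown, rose. IAA17 had 394, 405 and 472 FPKM in the seu-3 libraries, against 256, 246 and 223 FPKM in the Col-0 libraries (log2 change 0.81, SE 0.11, adjusted p = 0.00412). IAA7 and IAA14 changed by 0.81 and 1.02. The GH3 enzymes, which inactivate auxin by conjugation, split: GH3.2 fell by 2.61, GH3.5 (AT4G27260) had 3.14, 3.08 and 3.195 FPKM in the seu-3 libraries, against 8.30, 8.05 and 8.40 FPKM in the Col-0 libraries (log2 change -1.16, SE 0.11, adjusted p = 0.00174), and GH3.6 (AT5G54510) rose, at 18.9 ± 4.02 FPKM in seu-3 and 9.73 ± 1.67 FPKM in Col-0 (log2 change 0.88). IAA13 (AT2G33310) fell by 0.74. These 7 calls held with every library left out, and IAA13 overlaps a gene on the opposite strand. The eighth was LBD16 (AT2G42430), a factor of lateral root initiation, with 0.428, 0.938 and 0.377 FPKM in the seu-3 libraries, against 1.14, 3.103 and 3.23 FPKM in the Col-0 libraries (log2 change -1.09, SE 0.29, adjusted p = 0.0258), lost without seu-3 replicate 1 (adjusted p = 0.0767) or 3 (0.0737) and Col-0 replicate 2 (0.0881) or 3 (0.0816).

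Of 20 tested genes of auxin transport and synthesis 3 rose (15%) and 4 fell (20%). These shares too are near the 17.0% and 16.7% of all tested genes. YUC3 (AT1G04610), a flavin monooxygenase that makes IAA, had 27.0, 25.4 and 35.2 FPKM in the seu-3 libraries, against 15.4, 10.7 and 11.5 FPKM in the Col-0 libraries (log2 change 1.16, SE 0.17, adjusted p = 0.00532). ABCB1, another auxin transporter, changed by 0.56 and was called in 4 of the 6 fits that left out a library. ABCB4 (AT2G47000), an auxin transporter of the root epidermis, was 192 ± 22.1 FPKM in seu-3 and 108 ± 22.6 FPKM in Col-0 (log2 change 0.84); it overlaps AT2G46995. The carriers LAX2, PIN7, PIN3 and ABCB19 fell by 1.09, 0.56, 0.49 and 0.45, but the count of fallen members was 0, 6 and 1 without seu-3 replicates 1, 2 and 3, and 0, 0 and 0 without Col-0 replicates 1, 2 and 3. Each of these 4 calls was lost without any single Col-0 library, without seu-3 replicate 1 and, but for LAX2, in further settings. The efflux carrier PIN7 (AT1G23080) had 7.26, 8.18 and 5.38 FPKM in the seu-3 libraries, against 10.9, 11.4 and 9.53 FPKM in the Col-0 libraries (log2 change -0.56, SE 0.16, adjusted p = 0.0300).

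In cytokinin genes 3 of 15 rose (20%) and 1 fell (6.67%), beside 17.0% and 16.7% of all tested genes (median 0.14, or -0.11 without scaling and 0.13 with quantile normalization). ARR10 (AT4G31920), a response regulator that activates cytokinin targets, was 65.1 ± 8.43 FPKM in seu-3 and 35.8 ± 8.31 FPKM in Col-0 (log2 change 0.86, SE 0.18, adjusted p = 0.0135). AHK4 (AT2G01830), a cytokinin receptor, changed by 1.103, a call lost without Col-0 replicate 2 (adjusted p = 0.0629). ARR1, a relative of ARR10, and IPT7, an enzyme of cytokinin synthesis, changed by 0.41 and -0.79 and were called in 2 and 5 of the 6 fits that left out a library. Of 18 ethylene genes 3 rose (16.7%) and 0 fell (median 0.16, or -0.06 without scaling and 0.21 with quantile normalization). ARGOS (AT3G59900), a membrane protein that dampens ethylene perception and promotes organ growth, had 8.68, 12.3 and 14.1 FPKM in the seu-3 libraries, against 4.24, 2.88 and 1.82 FPKM in the Col-0 libraries (log2 change 1.69, SE 0.25, adjusted p = 0.00556). The other risen members were EIL1, a factor of the ethylene response (log2 change 0.69), and ACO4, an ethylene-forming oxidase (log2 change 0.49), both calls lost without Col-0 replicate 2 (adjusted p = 0.0516 and 0.0537). The risen ethylene members became 3, 4 and 3 without seu-3 replicates 1, 2 and 3, and 6, 1 and 3 without Col-0 replicates 1, 2 and 3. For gibberellin and brassinosteroid 6 of 23 rose (26.1%) and 1 (4.35%), the repressor GAI (log2 change -0.57, called in 3 of the 6 fits that left out a library), fell with scaling, whereas 1 rose and 8 fell without it, and the count of risen members was 4, 5 and 5 without seu-3 replicates 1, 2 and 3, and 6, 0 and 2 without Col-0 replicates 1, 2 and 3.

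Several lists of cell expansion held more rises than falls, beside 17.0% risen and 16.7% fallen of all tested genes. Rises were more frequent among abundant genes, at 43.7% in the highest bin of FPKM and 32.2% in the bin below it. Many members of these lists are abundant, and a comparison with genes of like level was not tested. All 9 genes of primary wall cellulose synthesis rose, with non-overlapping libraries in each (25.9% of all tested genes were higher without overlap) and a median change of 0.54, or 0.28 without scaling and 0.41 with quantile normalization; 4 rose without scaling and 5 with quantile normalization. CESA5 (AT5G09870), a subunit of the primary wall cellulose synthase, had 49.8, 59.9 and 66.3 FPKM in the seu-3 libraries, against 35.3, 26.9 and 16.8 FPKM in the Col-0 libraries (log2 change 1.18, SE 0.25, adjusted p = 0.0137). COB (AT5G60920), a membrane-anchored protein that orients cellulose deposition, was 418 ± 23.5 FPKM in seu-3 and 288 ± 23.5 FPKM in Col-0 (log2 change 0.54), and CTL1 (AT1G05850), a chitinase-like protein needed for cellulose assembly, was 843 ± 70.1 FPKM in seu-3 and 579 ± 26.0 FPKM in Col-0 (log2 change 0.54). The risen count was 6, 8 and 5 without seu-3 replicates 1, 2 and 3, and 9, 4 and 5 without Col-0 replicates 1, 2 and 3. Of 16 tested alpha-expansins, which loosen walls, 7 rose (43.75%) and 0 fell. The median was 0.42, or 0.15 without scaling and 0.27 with quantile normalization, and without scaling 4 rose and 2 fell. The risen expansin count was 4, 7 and 5 without seu-3 replicates 1, 2 and 3, and 10, 4 and 4 without Col-0 replicates 1, 2 and 3. EXPA17 (AT4G01630) had 1144, 1045 and 1274 FPKM in the seu-3 libraries, against 577, 605 and 611 FPKM in the Col-0 libraries (log2 change 0.94, SE 0.10, adjusted p = 0.00250), and EXPA8 (AT2G40610) was 52.6 ± 14.3 FPKM in seu-3 and 18.6 ± 0.722 FPKM in Col-0 (log2 change 1.42). Of 25 xyloglucan endotransglucosylase/hydrolases, which cut and rejoin wall xyloglucan, 12 rose (48%) and 2 fell (8%). The median was 0.30, or 0.04 without scaling and 0.22 with quantile normalization, and without scaling 7 rose and 2 fell. XTH16 and XTH9 fell (-0.79 and -1.31), called in 1 and 5 of the 6 fits that left out a library. The risen count of this family was 7, 11 and 7 without seu-3 replicates 1, 2 and 3, and 12, 8 and 9 without Col-0 replicates 1, 2 and 3. XTH17 (AT1G65310) was 958 ± 199.6 FPKM in seu-3 and 394 ± 102 FPKM in Col-0 (log2 change 1.29, SE 0.22, adjusted p = 0.00792) and XTH4 (AT2G06850) was 302 ± 10.7 FPKM in seu-3 and 198 ± 7.79 FPKM in Col-0 (log2 change 0.60).

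Surface glycoproteins and water channels went the same way, beside 17.0% risen and 16.7% fallen of all tested genes. In the highest bin of FPKM 43.7% rose, and a comparison of these lists with genes of like level was not tested. Of 42 tested arabinogalactan and fasciclin-like proteins 25 rose and 3 fell, with a median of 0.77, or 0.51 without scaling and 0.31 with quantile normalization; between 21 and 27 rose with each library left out. Summed over the whole list, untested members included, the level was 44979.6, 38916 and 48514 in the seu-3 libraries, against 26547, 23589.5 and 21923 in the Col-0 libraries. FLA13 (AT5G44130), a fasciclin-like member, had 433, 414 and 461 FPKM in the seu-3 libraries, against 196, 205 and 187 FPKM in the Col-0 libraries (log2 change 1.15, SE 0.09, adjusted p = 0.00118), while AGP30 (AT2G33790), an arabinogalactan protein known from roots, fell, at 263 ± 4.604 FPKM in seu-3 and 454 ± 45.9 FPKM in Col-0 (log2 change -0.78). Of 18 tested aquaporins 12 rose and 0 fell (median 0.55, or 0.29 without scaling and 0.12 with quantile normalization); with quantile normalization 8 rose and 3 fell. PIP2E (AT2G39010), a plasma membrane water channel, had 66.2, 75.7 and 95.2 FPKM in the seu-3 libraries, against 22.1, 21.7 and 18.8 FPKM in the Col-0 libraries (log2 change 1.86, SE 0.15, adjusted p = 0.00118). DELTA-TIP (AT3G16240), a channel of the vacuole membrane, was 2569 ± 356 FPKM in seu-3 and 1248 ± 50.6 FPKM in Col-0 (log2 change 1.03) and overlaps another annotated gene. The risen aquaporin count became 9, 13 and 10 without seu-3 replicates 1, 2 and 3, and 10, 8 and 11 without Col-0 replicates 1, 2 and 3.

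Of 46 tested class III peroxidases 8 rose (17.39%) and 5 fell (10.9%). The risen share is near the 17.0% of all tested genes, of which 16.7% fell. AT2G38380 had the largest fall among them, with 7.08, 3.70 and 3.91 FPKM in the seu-3 libraries, against 27.5, 32.2 and 37.1 FPKM in the Col-0 libraries (log2 change -2.53, SE 0.22, adjusted p = 0.00151).

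Of 20 root hair genes 9 rose (45%) and 1 fell (5%), beside 17.0% and 16.7% of all tested genes. In the highest bin of FPKM 43.7% of genes rose, and a comparison of this list with genes of like level was not tested. The median was 0.42, or 0.16 without scaling and 0.24 with quantile normalization. RHD2 (AT5G51060), the NADPH oxidase of the hair tip, was 139.8 ± 20.4 FPKM in seu-3 and 83.8 ± 14.1 FPKM in Col-0 (log2 change 0.74, SE 0.16, adjusted p = 0.0141), and EXPA7 (AT1G12560), an expansin of hair cells that overlaps AT1G12570, was 645 ± 87.2 FPKM in seu-3 and 409.7 ± 31.7 FPKM in Col-0 (log2 change 0.65). The bHLH factor RSL2 (AT4G33880), which promotes hair growth, was the member that fell, with 15.3, 13.3 and 15.4 FPKM in the seu-3 libraries, against 29.1, 33.8 and 38.9 FPKM in the Col-0 libraries (log2 change -1.15, SE 0.13, adjusted p = 0.00287). The risen count was 5, 14 and 7 without seu-3 replicates 1, 2 and 3, and 10, 2 and 4 without Col-0 replicates 1, 2 and 3, and with quantile normalization 5 rose and 2 fell.

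In the xylem and HD-ZIP III list 4 of 14 fell (28.6%) and 0 rose, against 16.7% fallen and 17.0% risen of all tested genes. REV (AT5G60690), a class III homeodomain factor, was 3.601 ± 0.109 FPKM in seu-3 and 5.92 ± 0.210 FPKM in Col-0 (log2 change -0.59, SE 0.11, adjusted p = 0.0102); it overlaps AT5G60700. TMO5, a vascular bHLH factor, its partner LHW and the homeodomain factor PHB changed by -0.88, -0.57 and -0.44, and were called in 5, 1 and 1 of the 6 fits that left out a library. The single calls among 11 epidermal fate genes, 13 Casparian strip genes and 5 suberin genes were the receptor kinase SCM (log2 change -0.77), the NADPH oxidase RBOHF (log2 change 0.48) and the transporter ABCG6 (log2 change -0.98). These 3 were called in 2, 2 and 1 of the 6 fits that left out a library. Of the 3 tested phloem genes limma called 0, and 0 reached an unadjusted p below 0.05.

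**Figure D4:**
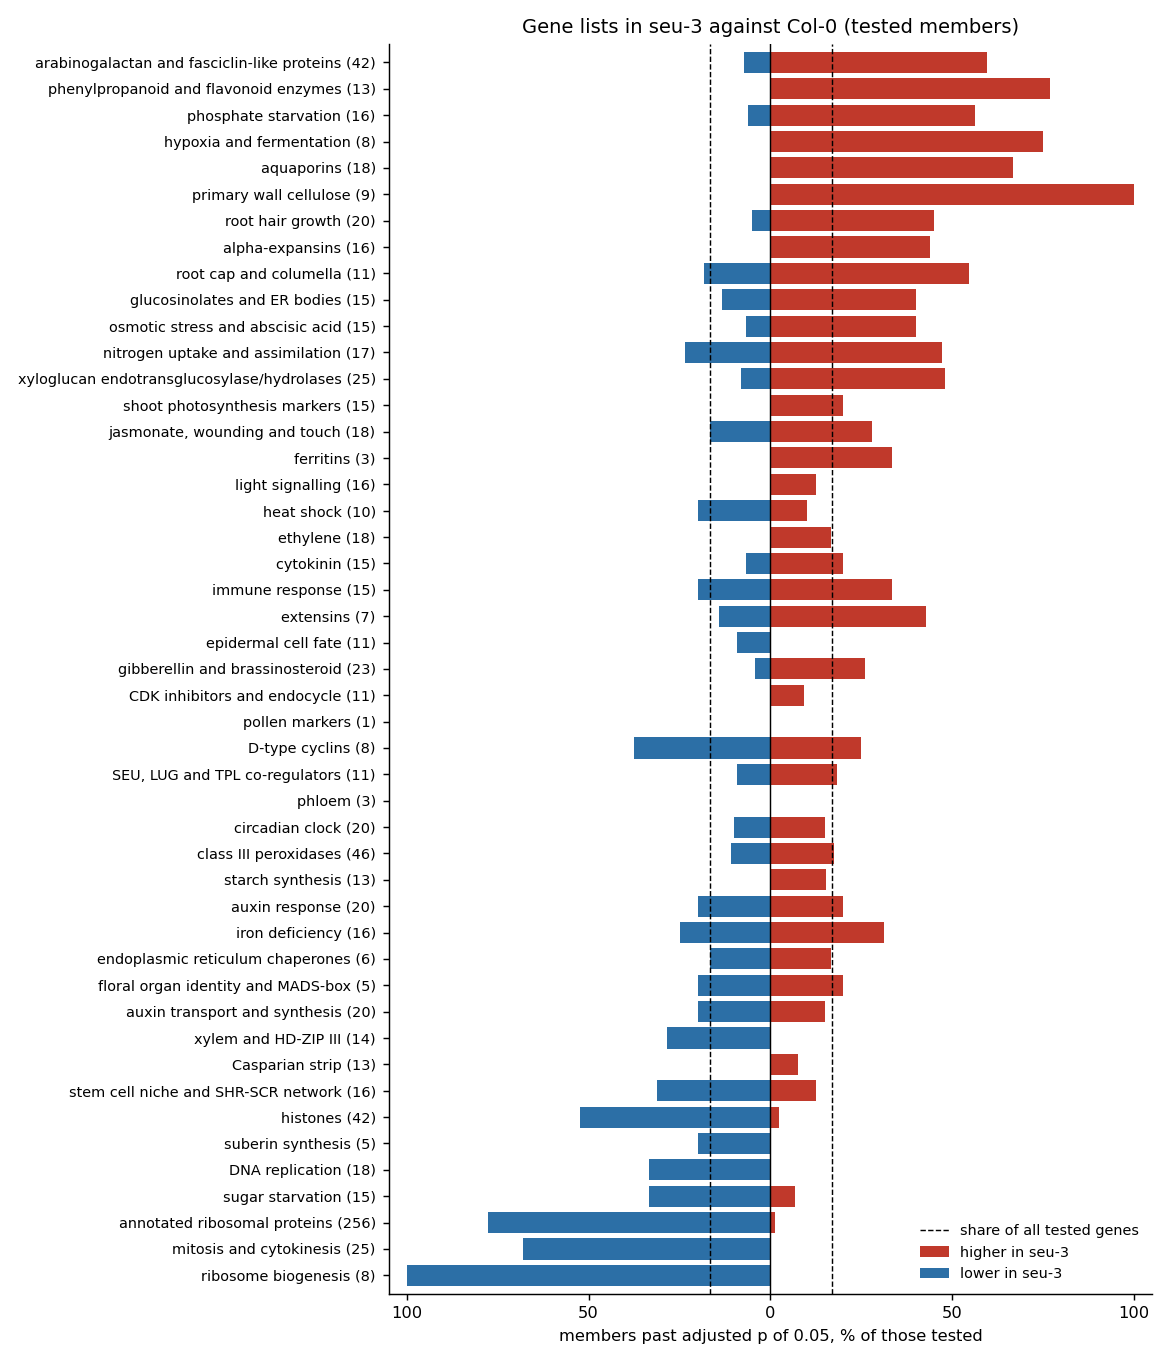
Share of the tested members of each list that rose (right) or fell (left) in seu-3 against Col-0, ordered by median change; the number of tested members is in brackets and dashed lines give the shares among all tested genes, 17.0% and 16.7%. All 8 ribosome biogenesis genes fell and all 9 primary wall cellulose genes rose.

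Nutrient genes changed in distinct ways. Of 17 tested genes of nitrogen uptake and assimilation 8 rose (47.1%) and 4 fell (23.5%), beside 17.0% and 16.7% of all tested genes. Both nitrate reductases rose. NIA1 (AT1G77760) had 11.7, 12.9 and 14.3 FPKM in the seu-3 libraries, against 4.62, 3.13 and 3.06 FPKM in the Col-0 libraries (log2 change 1.61, SE 0.16, adjusted p = 0.00197), and NIA2 (AT1G37130) was 117 ± 7.33 FPKM in seu-3 and 52.2 ± 14.6 FPKM in Col-0 (log2 change 1.19). Nitrite reductase, NIR1 (AT2G15620), which acts after them, was 201 ± 15.3 FPKM in seu-3 and 113 ± 22.4 FPKM in Col-0 (log2 change 0.84). Among the fallen were transporters. NRT2.1 (AT1G08090), the main high-affinity nitrate transporter, had 0.173, 0.387 and 0.172 FPKM in the seu-3 libraries, against 2.63, 4.58 and 6.21 FPKM in the Col-0 libraries (log2 change -2.09, SE 0.25, adjusted p = 0.00343), and AMT1;2 (AT1G64780), an ammonium transporter, had 2.87, 1.54 and 1.57 FPKM in the seu-3 libraries, against 8.89, 13.9 and 14.5 FPKM in the Col-0 libraries (log2 change -2.17, SE 0.23, adjusted p = 0.00248). NRT2.6, of the same family as NRT2.1, changed by -2.00 and was called in 4 of the 6 fits that left out a library. GLN1;2 fell by 1.53 while its homologue GLN1;1 (AT5G37600) rose by 0.52, at 715 ± 59.3 FPKM in seu-3 and 497 ± 15.4 FPKM in Col-0. Without scaling 5 members rose and 6 fell. The risen count was 5, 8 and 6 without seu-3 replicates 1, 2 and 3, and 6, 4 and 5 without Col-0 replicates 1, 2 and 3.

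Of 16 tested phosphate starvation genes 9 rose and 1 fell, with a median of 0.59, or 0.35 without scaling and 0.54 with quantile normalization; between 7 and 9 rose with each library left out. PHT1;4 (AT2G38940), a phosphate uptake transporter, had 307, 226 and 308 FPKM in the seu-3 libraries, against 115, 103 and 86.2 FPKM in the Col-0 libraries (log2 change 1.45, SE 0.16, adjusted p = 0.00250). SQD2 (AT5G01220) and MGD3 (AT2G11810), enzymes that replace phospholipids by sulfolipid and galactolipid, both rose. SQD2 was 165 ± 26.0 FPKM in seu-3 and 98.4 ± 11.5 FPKM in Col-0 and MGD3 was 10.4 ± 1.095 FPKM in seu-3 and 5.82 ± 0.682 FPKM in Col-0. PHO1 (AT3G23430), which loads phosphate into the xylem, fell, with 7.77, 6.54 and 4.36 FPKM in the seu-3 libraries, against 15.8, 19.9 and 21.0 FPKM in the Col-0 libraries (log2 change -1.48, SE 0.20, adjusted p = 0.00421). Iron genes were split, with 5 of 16 risen (31.25%) and 4 fallen (25%), beside 17.0% and 16.7% of all tested genes. The fallen ones were the uptake transporter IRT1 (AT4G19690), the ferric reductase FRO2 (AT1G01580) and the nicotianamine synthases NAS2 (AT5G56080) and NAS4 (AT1G56430). IRT1 had 22.7, 9.62 and 20.02 FPKM in the seu-3 libraries, against 36.6, 45.3 and 77.7 FPKM in the Col-0 libraries (log2 change -1.56, SE 0.36, adjusted p = 0.0169). NAS4, whose product makes a metal chelator, had 1.27, 1.88 and 1.49 FPKM in the seu-3 libraries, against 6.89, 8.39 and 4.66 FPKM in the Col-0 libraries (log2 change -1.56, SE 0.20, adjusted p = 0.00407). FRO2 and NAS2 changed by -1.14 and -0.96. The 5 iron rises became 1, 4 and 2 without seu-3 replicates 1, 2 and 3, and 2, 0 and 0 without Col-0 replicates 1, 2 and 3, and without scaling 1 rose and 7 fell.

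Sugar starvation genes, which are repressed by sugar, fell in part. Of 15 tested 5 fell (33.3%) and 1 rose (6.67%), beside 16.7% and 17.0% of all tested genes. The median was -0.77, or -1.03 without scaling and -0.86 with quantile normalization. The fallen members were DIN10, ProDH1, TPS8, BGAL4 and TPS11, of which TPS11 is named after its value was seen, and DIN9 rose (log2 change 0.61). BGAL4 and TPS11 changed by -1.08 and -1.39; DIN9, BGAL4 and TPS11 were called in 5, 5 and 1.0000 of the 6 fits that left out a library. TPS8 (AT1G70290), a trehalose phosphate synthase-like protein, had 7.98, 6.94 and 5.98 FPKM in the seu-3 libraries, against 14.2, 28.4 and 31.5 FPKM in the Col-0 libraries (log2 change -1.62, SE 0.27, adjusted p = 0.00772). The summed level was 379, 320.3 and 372 in the seu-3 libraries, against 543, 1086 and 1483 in the Col-0 libraries, so the mutant libraries were alike and the wild-type libraries were not, with replicate 1 the lowest. Without Col-0 replicate 1 the number of fallen members was 9, and without any other single library it was 3 or 4. Of 13 listed hypoxia and fermentation genes 8 were tested, while ADH1, SUS4, PCO1, PCO2 and HRA1 were below the filter. Of the 8 tested 6 rose and 0 fell (median 0.58, or 0.37 without scaling and 0.70 with quantile normalization), and the risen count was 4, 5 and 4 without seu-3 replicates 1, 2 and 3, and 5, 4 and 3 without Col-0 replicates 1, 2 and 3. PDC1 (AT4G33070), pyruvate decarboxylase, had 17.1, 14.9 and 13.8 FPKM in the seu-3 libraries, against 3.49, 3.92 and 2.19 FPKM in the Col-0 libraries (log2 change 1.97, SE 0.18, adjusted p = 0.00174), and PDC2 (AT5G54960) was 8.32 ± 0.475 FPKM in seu-3 and 4.48 ± 0.224 FPKM in Col-0 (log2 change 0.77). AT4G17260, a lactate dehydrogenase family member, was 36.9 ± 1.41 FPKM in seu-3 and 23.0 ± 2.49 FPKM in Col-0.

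**Figure D5:**
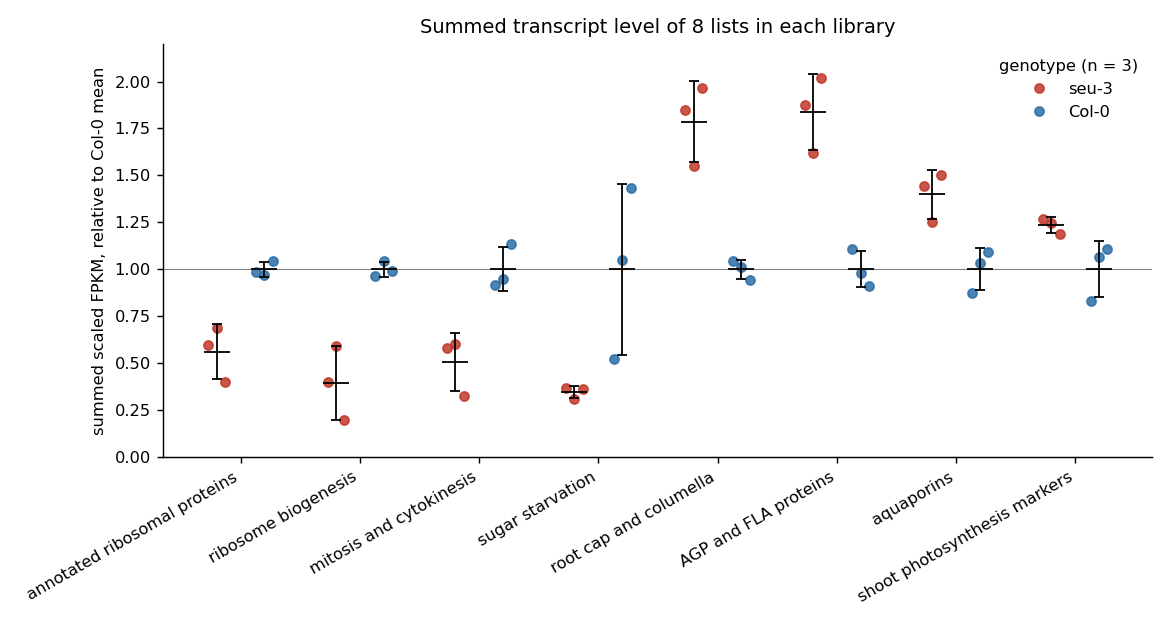
Summed scaled FPKM of 8 lists in each library, divided by the mean of the Col-0 libraries, with seu-3 left of Col-0; points are libraries, and black bars give the mean and SD of 3. The ribosomal protein sums do not overlap between genotypes, and the sugar starvation sum ranges widely among the Col-0 libraries.

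Of 17 listed phenylpropanoid and flavonoid genes 13 were tested, of which 10 rose (76.9%) and 0 fell, beside 17.0% and 16.7% of all tested genes. The median was 0.73, or 0.47 without scaling and 0.64 with quantile normalization, and 6 rose without scaling. The risen count was 7, 9 and 8 without seu-3 replicates 1, 2 and 3. It was 10, 5 and 6 without Col-0 replicates 1, 2 and 3. CHS (AT5G13930), chalcone synthase, the first enzyme of the flavonoid branch, had 1876, 2384 and 2222 FPKM in the seu-3 libraries, against 1154, 1099 and 694 FPKM in the Col-0 libraries (log2 change 1.16, SE 0.20, adjusted p = 0.00823), and it overlaps AT5G13940. 4CL3 (AT1G65060), the ligase that feeds that branch, had 104, 151 and 124 FPKM in the seu-3 libraries, against 59.6, 39.3 and 22.3 FPKM in the Col-0 libraries (log2 change 1.71, SE 0.32, adjusted p = 0.0101). CHI (AT3G55120), chalcone isomerase, and F3H (AT3G51240), flavanone hydroxylase (chosen once its value was known), changed by 1.29 and 1.41. In CHS, 4CL3, CHI and F3H Col-0 replicate 3 was the lowest library, and seu-3 replicate 2 the highest. C4H (AT2G30490), an earlier enzyme of the general pathway, was 581 ± 38.5 FPKM in seu-3 and 381 ± 35.3 FPKM in Col-0 (log2 change 0.61). F3H overlaps a gene on the opposite strand.

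Of 15 tested genes of osmotic stress and abscisic acid 6 rose (40%) and 1 fell (6.67%). Of all tested genes 17.0% rose and 16.7% fell. The fallen member was the factor DREB2A (log2 change -0.50), called in 1 of the 6 fits that left out a library. KIN2 (AT5G15970) had 557, 599.8 and 545 FPKM in the seu-3 libraries, against 265, 319 and 277 FPKM in the Col-0 libraries (log2 change 0.98, SE 0.10, adjusted p = 0.00230), and RD29A (AT5G52310) was 44.2 ± 3.41 FPKM in seu-3 and 19.9 ± 3.53 FPKM in Col-0 (log2 change 1.12); both are known to be induced by cold and drought. The risen count was 4, 5 and 4 without seu-3 replicates 1, 2 and 3, and 6, 4 and 4 without Col-0 replicates 1, 2 and 3. In the jasmonate, wounding and touch list 5 of 18 rose (27.8%) and 3 fell (16.7%). The fallen members OPR3, COI1 and TCH3 changed by -0.53, -0.37 and -1.54. They were called in 4, 1 and 2 of the 6 fits that left out a library. AOC2 (AT3G25770), an enzyme of jasmonate synthesis, had 5.15, 4.56 and 5.83 FPKM in the seu-3 libraries, against 1.09, 0.851 and 1.93 FPKM in the Col-0 libraries (log2 change 1.45, SE 0.20, adjusted p = 0.00428), and TCH4 (AT5G57560), a touch-induced xyloglucan enzyme, was 8.92 ± 2.52 FPKM in seu-3 and 3.25 ± 0.475 FPKM in Col-0 (log2 change 1.197). In the immune list 5 of 15 rose (33.3%) and 3 fell (20%). WRKY11 (AT4G31550), a transcription factor of basal defence, was 243 ± 31.3 FPKM in seu-3 and 128 ± 10.4 FPKM in Col-0 (log2 change 0.91, SE 0.12, adjusted p = 0.00421), and EDS5 (AT4G39030), the transporter that exports the salicylic acid precursor from plastids, was 53.0 ± 7.76 FPKM in seu-3 and 23.9 ± 6.70 FPKM in Col-0 (log2 change 1.14); EDS5 overlaps AT4G39040. WRKY70 (AT3G56400) had 1.0999, 1.69 and 1.44 FPKM in the seu-3 libraries, against 2.94, 6.91 and 8.19 FPKM in the Col-0 libraries (log2 change -1.46, SE 0.30, adjusted p = 0.0135), a call lost without Col-0 replicate 2 (adjusted p = 0.0518). The other 2 that fell were WRKY40 and AZI1, at -1.29 and -1.62, called in 5 and 4 of these 6 fits. Of 15 genes of glucosinolates and endoplasmic reticulum bodies 6 rose (40%) and 2 fell (13.3%), BGLU21 and its near copy BGLU22 (-0.60 and -0.36); the BGLU21 call was lost without Col-0 replicate 2 and BGLU22 was called in 2 of the 6 fits. CYP83B1 (AT4G31500), which commits tryptophan-derived oxime to glucosinolate, had 71.4, 63.7 and 45.6 FPKM in the seu-3 libraries, against 21.4, 26.7 and 29.9 FPKM in the Col-0 libraries (log2 change 1.17, SE 0.19, adjusted p = 0.00664), and MYB34 (AT5G60890), which activates that branch, was 27.6 ± 3.89 FPKM in seu-3 and 14.4 ± 0.399 FPKM in Col-0 (log2 change 0.89).

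Of 22 listed MADS-box genes 5 passed the filter, and AG itself, the known target of SEU in flowers, was at 0 in all 6 libraries. STK (AT4G09960), a close relative of AG that acts in ovules, had 3.06, 2.62 and 3.27 FPKM in the seu-3 libraries, against 1.13, 0.948 and 0.906 FPKM in the Col-0 libraries (log2 change 0.996, SE 0.14, adjusted p = 0.00491). These are low values in which the genotypes did not overlap, and 25.9% of all tested genes were higher without overlap. STK overlaps AT4G09950. AGL17 (AT2G22630) had 5.10, 3.84 and 3.51 FPKM in the seu-3 libraries, against 7.32, 5.67 and 9.82 FPKM in the Col-0 libraries (log2 change -0.72, SE 0.20, adjusted p = 0.0299), a call lost with quantile normalization (adjusted p = 0.0655), no filter (0.0542) and sample quality weights (0.101), and without seu-3 replicate 2 (0.064) or 3 (0.0881) and Col-0 replicate 1 (0.0599) or 3 (0.0805). In the circadian clock list 3 of 20 rose (LHY, RVE4 and ELF4, by 0.53, 0.42 and 0.46) and 2 fell (RVE1 and GRP7). These shares of 15% and 10% are no higher than the 17.0% risen and 16.7% fallen of all tested genes. Without scaling 0 rose and 6 fell, and LHY, RVE4, ELF4 and GRP7 were called in 1, 1, 2 and 2 of the 6 fits that left out a library. RVE1 (AT5G17300), a morning-phased factor, had 1.26, 1.36 and 1.02 FPKM in the seu-3 libraries, against 2.81, 3.90 and 5.04 FPKM in the Col-0 libraries (log2 change -1.13, SE 0.19, adjusted p = 0.00775), and it overlaps a gene on the opposite strand.

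To see which of these changes also set seu-3 apart from another mutant, it was compared with wox5-1, in a fit of all 9 libraries scaled together, so that seu-3 values differ a little from those above. This comparison shares its seu-3 libraries with the one above and is given side by side only. Of the 16831 genes 5376 were higher in seu-3 than in wox5-1 (31.9%) and 5358 lower (31.8%). All 15 of the largest rises against Col-0 were also higher than in wox5-1, and 13 of the 15 largest falls were also lower. OSM34 was 20.06 ± 4.12 FPKM in seu-3 and 0.0404 ± 0.0699 FPKM in wox5-1 (log2 difference 4.32, adjusted p = 4.65e-06), and IAMT1 was 157 ± 19.6 FPKM in seu-3 and 25.3 ± 2.90 FPKM in wox5-1 (log2 difference 2.58, adjusted p = 9.63e-06). HEI10 was 0.521 ± 0.292 FPKM in seu-3 and 13.4 ± 1.93 FPKM in wox5-1 (log2 difference -3.25, adjusted p = 5.19e-06). The exceptions were MLP329 (AT2G01530), a major latex protein-like gene, at 10.6 ± 4.27 FPKM in seu-3 and 7.84 ± 2.81 FPKM in wox5-1 (log2 difference 0.36, adjusted p = 0.346), and AT3G59930, at 8.07 ± 2.69 FPKM in seu-3 and 6.79 ± 0.168 FPKM in wox5-1 (log2 difference 0.18, adjusted p = 0.496). Among the largest losses of FPKM, GLN1;2 was 187 ± 25.0 FPKM in seu-3 and 193 ± 5.39 FPKM in wox5-1 (log2 difference -0.06, adjusted p = 0.683) and the chitinase AT2G43610 was 477 ± 29.9 FPKM in seu-3 and 542 ± 94.0 FPKM in wox5-1 (log2 difference -0.17, adjusted p = 0.329).

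SHR was 3.02 ± 0.858 FPKM in seu-3 and 13.1 ± 1.79 FPKM in wox5-1 (log2 difference -1.83, adjusted p = 5.93e-05), and PLT3 was 3.12 ± 0.705 FPKM in seu-3 and 11.8 ± 2.18 FPKM in wox5-1 (log2 difference -1.64, adjusted p = 0.000124). SMB, by contrast, was 5.22 ± 0.803 FPKM in seu-3 and 5.75 ± 1.15 FPKM in wox5-1 (log2 difference -0.11, adjusted p = 0.529), and IRT1 was 18.03 ± 7.06 FPKM in seu-3 and 15.9 ± 10.03 FPKM in wox5-1 (log2 difference 0.33, adjusted p = 0.600). For IRT1, SMB, GLN1;2, AT2G43610, AT3G59930 and MLP329 the difference from wox5-1 did not pass, which does not show that the mutants are alike. Of the ribosomal protein list 237 of 256 tested members were lower in seu-3 than in wox5-1 and 6 higher, with a median of -1.59, and of the mitosis list 23 of 25 were lower. The targeted gene SEU was 5.33 ± 0.365 FPKM in seu-3 and 12.3 ± 0.182 FPKM in wox5-1 (log2 difference -1.07, adjusted p = 0.000199).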

How the data were processed

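RNA was sequenced from root tips of 3 seu-3, 3 Col-0 and 3 wox5-1 samples. The authors deposited a table of FPKM values per gene; Bowtie, Cufflinks and the build TAIR10 are named in the submitters' processing notes, and versions, strand setting and annotation are not given in the sources used here. FPKM are already scaled to depth and length, so no count test was used, and no whole reads could be recovered.

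FPKM were divided by median-ratio factors, and log2(FPKM + 1) was tested with limma 3.58.1 (R 4.3.3; trend in the variance prior) on the 6 libraries for genes averaging 1 FPKM or more, with Benjamini-Hochberg adjustment at 0.05. The comparison with wox5-1 used all 9 libraries. The fit was tested on simulated data in which few genes were changed, unlike in these data. It called 5.80% of genes changed by 0.5 log2 units, 54.7% of those changed by 1 and 0.0168% of unchanged ones. A gene that did not pass may therefore have changed. Alternatives were no scaling, quantile normalization, a pseudocount of 0.1, filters of 0 and 5 FPKM, no variance trend, sample quality weights, a replicate block, a fit of all 9 libraries and each library left out.

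The genes included and the gene lists were chosen with earlier results of these data known. Named were SEU, the 15 largest rises and falls without overlap, the 10 largest gains and losses of FPKM, and up to 4 called members of each list and direction (2 where none was called), of which the text prints a part. Gene positions, overlaps and promoters came from the RefSeq annotation of TAIR10.1, which 16744 tested genes matched.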

Additional observations from a re-analysis of the deposited data

How the results depend on the processing

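The direction and call of SEU held under every alternative run, with a log2 change between -1.48 and -1.09. The number of genes called in seu-3 against Col-0 (5671) moved to 10394 with sample quality weights (5174 higher and 5220 lower in seu-3) and to 1092 where a change of at least 1 log2 unit was also asked. Without scaling 1276 were higher and 5316 lower in seu-3. With one library left out the total ran from 2207 to 6214, the higher ones from 1261 to 3075 and the lower ones from 946 to 3139. The cause of these movements was not tested, beyond the fewer libraries or the stricter rule. Against wox5-1 the count was 10734, and 9357 to 10669 with one library left out. The correlations of the deviations of same-numbered seu-3 and Col-0 libraries were -0.17, 0.00 and -0.12, so replicate numbers were not treated as pairs; with the replicate block 3824 genes were called, 1830 higher and 1994 lower in seu-3. Of 186 genes named in the text, 12 values under an alternative had the other sign, all in genes with small changes or very high levels. With quantile normalization EXT3 changed by -0.24, AT3G54580 by -0.13, SLK3 by 0.054 and TPR1 by -0.068. Without scaling SLK1 changed by -0.14, TPR1 by -0.25 and TPR2 by -0.011. TPR1 changed by -0.066 with a filter of 5 FPKM, and by -0.037 to 0.058 with one library left out. TPL ran from -0.080 to 0.0092 and LUG up to 0.0047 with one library left out; the causes were not tested. Depth is not known, which limits what can be said of genes near 1 FPKM.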
